A study of Mus musculus with 6 samples.

Results

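Inflammatory caspases, inhibitors of apoptosis, sensors and kinases of innate immune and mitogen-activated protein kinase (MAPK) signaling were examined in the liver of antibiotic-treated (ABX) mice. The set held the rows of the count table labelled Casp1, Casp4, Casp12, Birc2, Birc3, Ripk2, Ddx58, Lyn, Map3k7 and Map3k8, 10 of 55357 rows in all, chosen by symbol among genes at the same genome position in the builds GRCm38 and GRCm39. Liver RNA came from 3 mice kept under NLD, a cycle of 12 h light and 12 h dark, and from 3 mice kept under SD, a short day of 8 h light and 16 h dark, each mouse giving 1 library. Both groups were C57BL/6 mice by the labels and received the same antibiotic cocktail in the drinking water, so that untreated mice do not enter the comparison. The labels give Day 28 as the time for all 6 mice. By the methods, mice were fasted before they were killed in the same hours of the morning. The comparison asked whether these genes had other hepatic RNA levels under SD than under NLD once the gut microbes had been depleted, in a study that also addressed the MAPK pathway.

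Inflammatory caspases are cysteine proteases that are activated in multiprotein complexes called inflammasomes, where Casp1 matures interleukin-1 beta and interleukin-18 and Casp4 (also called caspase-11 in the mouse) responds to bacterial lipopolysaccharide in the cytosol. Sensors of bacterial wall fragments and of viral RNA pass their signals through adaptors, ubiquitin ligases of the inhibitor of apoptosis family and kinases such as Map3k7 (TAK1) to NF-kB and MAPK cascades. In the liver these proteins are found in hepatocytes as well as in Kupffer cells, the resident macrophages, which meet bacterial products arriving from the gut.

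None of the 10 genes passed the test for a change between SD and NLD. The quasi-likelihood test of edgeR called 0 of the 10 at an adjusted p under 0.05, against 0.289% of the 7261 rows tested. At an unadjusted p under 0.05, 0 of the 10 were higher under SD, against 4.46% of all rows, and 0 were lower, against 4.02% of all rows. DESeq2 also called 0 of the 10, at an adjusted as well as at an unadjusted p under 0.05, against 1.9% of all rows at an adjusted p. The 3 SD libraries overlapped the 3 NLD libraries in every one of the 10 genes, whereas 17.0% of all rows tested had groups without overlap. Log2 fold changes lay above 0 for 4 genes and below 0 for 6, with a median of -0.04, against 0.03 over all rows tested. Adjusted p-values ran from 0.692 to 0.993 (edgeR). An exact permutation test of 3 mice against 3 cannot give a p below 0.1.

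All 10 rows passed the filter on low counts. The libraries held between 5497797 and 6932965 counts. The labels and the methods name different builds, and a gene name may stand for reads of another gene where positions differ. Of the rows placed in both builds, 2.73% lay at the same position, the 10 genes among them. On the first principal component of log2 CPM, NLD replicate 2 stood apart at 75, with the other libraries between -44.7 and 27.7, and values without it are therefore given beside the results. Levels are in CPM, counts scaled to the library size after TMM normalization. The hepatocyte markers at the same position were Pon1, a paraoxonase gene, and Cyp7a1, whose product catalyses the first step from cholesterol to bile acids. Pon1 had 16973 CPM on average under NLD and 14191 under SD, with no overlap, as in 17.0% of all rows tested (edgeR adjusted p = 0.631). Cyp7a1 had 1723 ± 646 CPM (s.d., standard deviation, n = 3) under NLD and 5081 ± 1718 (s.d., n = 3) under SD, with no overlap and a log2 fold change of 1.56 (adjusted p = 0.327 from edgeR and 0.00087 from DESeq2).

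**Figure D1:**
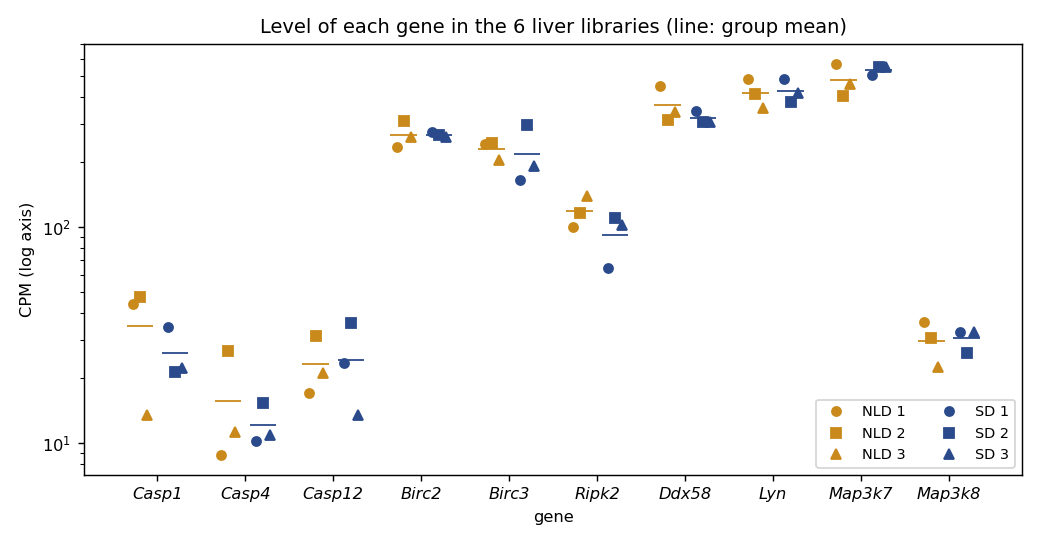
Level of each of the 10 genes in CPM on a log axis, with 1 point per library (NLD in ochre, SD in blue; the shape gives the replicate) and a line at each group mean. The points of both groups overlap for every gene. Under NLD the 3 caspases show the widest spread relative to the mean, and under SD Casp12 and Birc3 do.

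The caspases lie side by side on chromosome 9 of GRCm39, on the plus strand: Casp1 from 5298508 to 5307290, Casp4 from 5308828 to 5336783 and Casp12 from 5345415 to 5373034. The 3 genes are paralogs, and coding sequences of Casp1 and Casp4 were identical at 66.5% of aligned bases, those of Casp1 and Casp12 at 65.7% and those of Casp4 and Casp12 at 68.3%. Coding bases around the active-site cysteine are shown because the active site is common to the family, and because the differences bear on whether reads of one gene could be counted for another. The capitals mark the 5 codons that encode the active-site motif with its cysteine (GENCODE transcripts on GRCm39, 45 bases each, 5′ to 3′).
Casp1: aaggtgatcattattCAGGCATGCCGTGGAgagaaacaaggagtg
Casp4: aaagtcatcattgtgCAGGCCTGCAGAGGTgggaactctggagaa
Casp12: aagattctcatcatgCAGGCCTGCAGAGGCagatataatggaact
The cysteine codon is number 284 of Casp1, 254 of Casp4 and 298 of Casp12. Over the 45 bases, Casp4 differed from Casp1 at 15 and Casp12 differed from Casp1 at 19, with 4 differences inside the capitals in each case. No stretch of 75 bases of the Casp4 or Casp12 transcript was found in another gene, and for Casp1 2.47% of such stretches were shared, all with Gm67740 on the other strand.

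Casp1 had 44.0, 47.2 and 13.4 CPM in NLD replicates 1, 2 and 3 and 34.5, 21.3 and 22.1 CPM in SD replicates 1, 2 and 3. NLD replicate 3 was the lowest of the 6 libraries and NLD replicate 2 the highest, so that SD lay inside the range of NLD. The means were 34.9 ± 18.6 CPM (s.d., n = 3) under NLD and 26.0 ± 7.42 CPM (s.d., n = 3) under SD. Its log2 fold change was -0.42 (standard error 0.48, edgeR adjusted p = 0.831). Within NLD the coefficient of variation was 53.4%, against 8.12% from counting alone if each count stood for 1 read. Without NLD replicate 3 the log2 fold change was -0.81, with an unadjusted p of 0.0306 and an adjusted p of 0.825 (edgeR), and without NLD replicate 2 it was -0.15. In bulk liver, fewer cells of a type and less RNA per cell cannot be told apart.

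Casp4 had 8.77, 26.8 and 11.3 CPM under NLD and 10.2, 15.3 and 10.8 CPM under SD. Replicate 2 was the highest library in each group, and the other 4 libraries lay within 8.77 and 11.3 CPM. The log2 fold change was -0.37 (standard error 0.46, edgeR adjusted p = 0.845). It turned to 0.26 without NLD replicate 2, so that its sign rested on that library.

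Casp12, whose product is associated with the endoplasmic reticulum in the mouse, had 17.0, 31.3 and 21.1 CPM under NLD and 23.4, 35.8 and 13.4 CPM under SD. Again replicate 2 was the highest library of each group, and the lowest library was SD replicate 3. This gave a log2 fold change of 0.07 (standard error 0.41, edgeR adjusted p = 0.972), 0.34 without NLD replicate 2 and -0.34 without SD replicate 2.

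Within a library, the ratio of Casp12 to Casp1 ran from 0.388 to 1.56 under NLD and from 0.608 to 1.68 under SD. Neither this ratio nor that of Casp4 to Casp1 separated the groups (difference of mean log2 ratios 0.26 and 0.04, exact two-sided permutation p = 0.7 and 1, 4 ratios compared in all). Casp1 was highest in replicate 2 under NLD, as Casp4 and Casp12 were. Under SD, Casp1 was highest in replicate 1, with 145 counts in each of the other 2 libraries.

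Among markers of other liver cells whose genes also lie at the same position, Col1a2 had the same highest libraries as Casp4 and Casp12. Col1a2 encodes a chain of type I collagen, made by stellate cells and fibroblasts, and was singled out after its values were seen. It had 128, 249.7 and 149.6 CPM under NLD and 152, 317 and 141 CPM under SD, and was thus highest in replicate 2 of each group, as Casp4 and Casp12 were. The share of all rows with replicate 2 highest in each group was not counted. Cftr, a cholangiocyte marker at the same position, had 3.44, 0 and 2.16 CPM under NLD and 1.19, 7.19 and 3.51 CPM under SD. It was thus highest in replicate 2 under SD but lowest in replicate 2 under NLD. Of the rows for Kupffer cell markers, 12 of 19 were listed at 0 in the 6 libraries and none lay at the same position. In the same liver RNA, 10 of 24 rows for hepatocyte markers were also listed at 0, so that such zeros do not measure the cells present. The B cell transcription factor gene Pax5 had 12.7, 9.03 and 4.81 CPM under NLD and 2.29 to 2.71 CPM under SD (log2 fold change -1.82, unadjusted p = 0.0044, edgeR adjusted p = 0.327). It was highest in replicate 1 of each group. Of the rows tested at the same position, 13.3% had an unadjusted p under 0.05 (edgeR). The 4 tested rows for B cell markers, of which only Pax5 lay at the same position, had a median log2 fold change of -0.17. The neutrophil gene Mmp8 had 4 counts in NLD replicate 3 and 0 in the other 5 libraries. The part of such cells in the levels of the caspases was not tested.

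**Figure D2:**
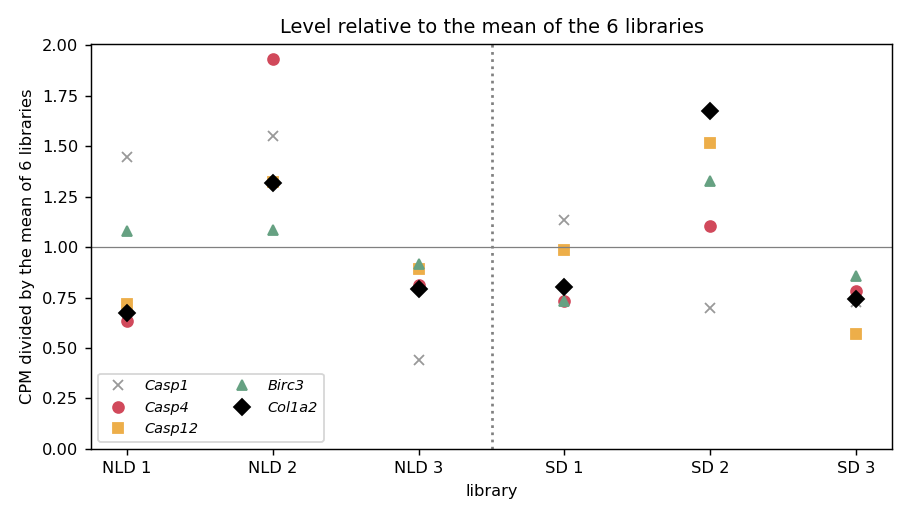
CPM of Casp1, Casp4, Casp12, Birc3 and Col1a2 in each library (3 NLD on the left, 3 SD on the right), divided by the gene's mean over the 6 libraries, so that 1 is the mean. Casp4, Casp12, Birc3 and Col1a2 lie highest in replicate 2 of each group, Birc3 under NLD by little (1.09 against 1.08), and Casp1 lies highest in replicate 2 under NLD and in replicate 1 under SD.

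Birc2 (cIAP1) and Birc3 (cIAP2) are ubiquitin ligases that attach ubiquitin chains to Ripk1 and Ripk2 and restrain cell death. Birc2 lies on the minus strand of chromosome 9 from 7818227 to 7837120 and Birc3 on the same strand from 7845790 to 7873229 (GRCm39). Their coding sequences were identical at 76.7% of aligned bases, with a longest identical run of 114 bases, and 1.18% of 75-base stretches of Birc2 and 3.35% of those of Birc3 occurred in other genes. How reads in such stretches were assigned is not given in the sources used here.

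Birc2 had 233, 307 and 262 CPM under NLD and 275, 265 and 259 CPM under SD. The SD libraries lay close together and inside the range of NLD. The means were 267 ± 37.5 CPM (s.d., n = 3) and 266 ± 7.72 CPM (s.d., n = 3). The log2 fold change was -0.01 (standard error 0.14, edgeR adjusted p = 0.993), the smallest standard error of the 10 genes. Its 95% interval ran from a fold of 0.788 to 1.26, and without NLD replicate 2 the log2 fold change was 0.10. The coefficient of variation under SD was 2.90%, against 2.42% from counting alone if each count stood for 1 read.

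Birc3 had 241, 243 and 205 CPM under NLD and 164, 297 and 192 CPM under SD. SD replicate 2 was the highest and SD replicate 1 the lowest of the 6 libraries, so that NLD lay inside the range of SD. Between the groups the log2 fold change was -0.08 (standard error 0.24, edgeR adjusted p = 0.937) and -0.04 without NLD replicate 2. The ratio of Birc3 to Birc2 ran from 0.782 to 1.04 in the NLD libraries and from 0.599 to 1.12 in the SD libraries, so that the groups overlapped in this ratio as well (exact two-sided permutation p = 0.8).

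Ripk2 is the kinase that carries signals from the receptors Nod1 and Nod2, which sense fragments of the bacterial wall. It lies on chromosome 4 from 16121400 to 16163796 on the minus strand (GRCm39). It had 100.2, 116 and 138 CPM under NLD and 64.2, 109.7 and 102 CPM under SD. SD replicate 1 was below all other libraries, and the other 2 SD libraries lay inside the range of NLD. The means were 118 ± 19.2 CPM (s.d., n = 3) and 91.8 ± 24.3 CPM (s.d., n = 3). The log2 fold change of -0.36 (standard error 0.24) had the smallest p of the 10 genes, at 0.176 unadjusted and 0.692 adjusted (edgeR). It stayed below 0 with each library left out, between -0.52 and -0.16, and was -0.39 without NLD replicate 2.

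Ddx58 encodes RIG-I, the sensor of viral RNA in the cytosol, and is named Rigi in the GRCm39 annotation (chromosome 4, 40203772 to 40239852, minus strand). It had 447, 314 and 342 CPM under NLD and 343, 305 and 304 CPM under SD. NLD replicate 1 stood above the other 5 libraries, which lay between 304 and 343 CPM. The means were 367 ± 70.1 CPM (s.d., n = 3) and 317 ± 22.3 CPM (s.d., n = 3), with a log2 fold change of -0.21 (standard error 0.17, edgeR adjusted p = 0.732). It was below 0 with each library left out, between -0.32 (without NLD replicate 2) and -0.05. None of the 75-base stretches of its transcript occurred in another gene.

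Lyn is a Src family kinase of B cells and myeloid cells (chromosome 4, 3678061 to 3813122, plus strand, GRCm39). It had 482, 413 and 356 CPM under NLD and 484, 377 and 418 CPM under SD, so that replicate 1 was highest in each group and the groups spanned nearly the same range. Its log2 fold change was 0.03 (standard error 0.16, edgeR adjusted p = 0.966) and 0.02 without NLD replicate 2. Among 75-base stretches of its transcript, 18.15% also occurred in the pseudogene Gm11787 or in Gm42250 on the other strand, and Gm11787 had 0 to 11 counts per library. Rps20, a ribosomal protein gene with at least 15993 counts per library, lies within the span of Lyn on the other strand and shares 0 exon bases with it. The counting is not stated to use strand, so that reads of antisense partners cannot be told apart.

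Map3k7 encodes TAK1, the kinase upstream of NF-kB and of the JNK and p38 MAPK cascades (chromosome 4, 31963864 to 32051628, plus strand, GRCm39). It had 569.7, 403 and 456 CPM under NLD and 504, 549.9 and 548 CPM under SD. The SD libraries lay close together above 2 of the NLD libraries, and NLD replicate 1 was above them all. The means were 476 ± 85.1 CPM (s.d., n = 3) and 534 ± 26.0 CPM (s.d., n = 3), with a log2 fold change of 0.16 (standard error 0.16, edgeR adjusted p = 0.791). With each library left out in turn it stayed above 0, from 0.05 without NLD replicate 2 to 0.31 without NLD replicate 1.

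Map3k8, also called Tpl2, is the kinase that activates the ERK branch downstream of Toll-like receptors (chromosome 18, 4331327 to 4353463, minus strand, GRCm39). It had 36.1, 30.4 and 22.6 CPM under NLD and 32.7, 26.1 and 32.5 CPM under SD, all SD values lying inside the range of NLD. The log2 fold change was 0.04 (standard error 0.23, edgeR adjusted p = 0.973) and 0.05 without NLD replicate 2. The ratio of Map3k8 to Map3k7 did not separate the groups (difference of mean log2 ratios -0.12, exact two-sided permutation p = 0.6). Of the 75-base stretches of its transcript, 17.81% also lay in the antisense gene 4833419F23Rik, which had 0 to 27 counts per library.

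**Figure D3:**
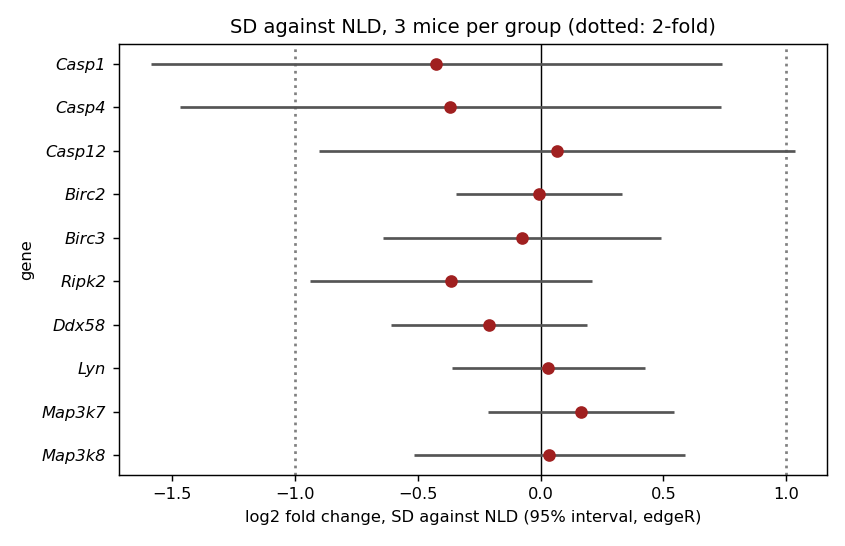
Log2 fold change of SD against NLD with its 95% interval from edgeR for each gene, 3 mice per group, with dotted lines at a 2-fold change in either direction. Every interval includes 0, and those of the 3 caspases are the widest.

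The data set different limits on a change for different genes. The 95% intervals of 7 of the 10 genes lay within a 2-fold change in either direction, those of Birc2, Lyn and Map3k7 within a 1.5-fold change. For the caspases a 2-fold change in at least 1 direction lay inside the interval, which ran from -1.59 to 0.74 for Casp1, from -1.47 to 0.73 for Casp4 and from -0.90 to 1.04 for Casp12 on the log2 scale. Their standard errors of 0.41 to 0.48 lay above the median of 0.21 over the 384 rows tested at the same position. Of these 384 rows, 13.3% had an unadjusted p under 0.05 (edgeR) and 1 an adjusted p under 0.05, and their median log2 fold change was 0.03.

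Levels were compared between genes per kilobase of merged exons. Lyn was highest at 88.3 CPM per kb over the 6 libraries, and its range did not overlap that of the next gene. Map3k7 (43.6), Birc2 (40.9) and Ddx58 (40.6) followed with overlapping ranges in CPM per kb. Below a gap came Birc3 (25.8), Ripk2 (17.9), Casp1 (9.70), Map3k8 (6.05), Casp12 (5.61) and Casp4 (2.64 CPM per kb), where the range of each gene overlapped that of its neighbours. The length of the longest transcript in place of merged exons put Ddx58 before Birc2 and left the order of the other genes as it was. The gap then lay between Ddx58 and Birc2, and the range of Birc2 overlapped that of Birc3.

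**Figure D4:**
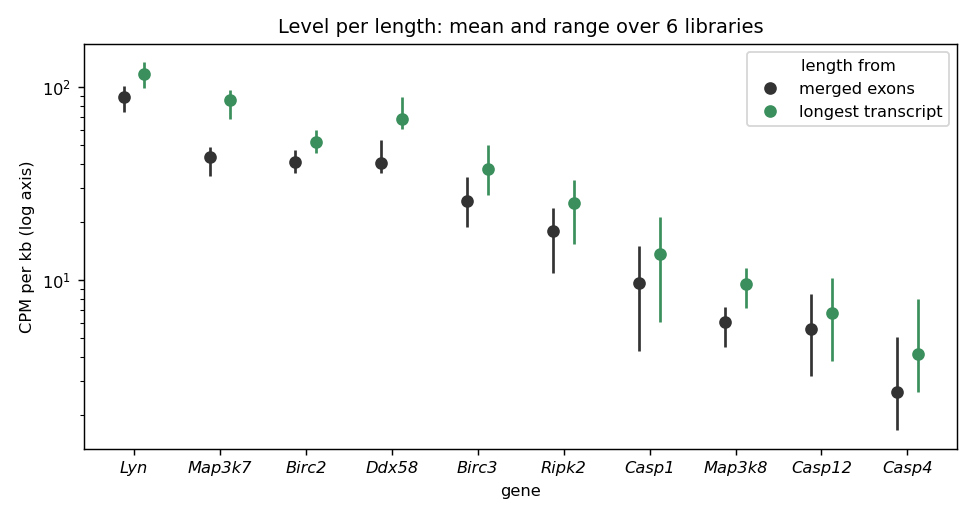
CPM per kb on a log axis for each gene, with a point at the mean and a line over the range of the 6 libraries, for the length of merged exons (dark) and of the longest transcript (green). Lyn is highest at 88.3 and Casp4 lowest at 2.64 CPM per kb of merged exons.

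Promoter motifs are shown because the pathways of these genes act on NF-kB, AP-1 and interferon-response factors. Promoters of 7 of the 10 genes were matched. In the 250 bases before the start sites (RefSeq, GRCm38.p6), the AP-1 motif TGANTCA, the interferon element core GAAANNGAA, the cyclic AMP element TGACGTCA and the NF-kB motif were searched on both strands. Casp1, Casp12, Birc3 and Ddx58 held none of them. Casp4 and Map3k7 held an NF-kB match and Birc2 a cyclic AMP element, each shown with its flanks, 30 bases 5′ to 3′ on the strand of the gene, the match in capitals.
Casp4, chr9:5308747-5308776, plus strand: tgagttacaGGGGATTTCCCcacagcagtt
Map3k7, chr4:31964005-31964034, plus strand: ccccgggtcaGGAAATTCCCcgctcgggtc
Birc2, chr9:7837074-7837103, minus strand: tgcgcgtctgcTGACGTCAcctcaacggcc
The run in Casp4 consists of 2 overlapping matches. Of 32851 promoters, 3.9% held the NF-kB motif, 1.55% the cyclic AMP element, 6.75% the AP-1 motif and 7.13% the interferon element core. Casp4 and Map3k7, with the same motif, had log2 fold changes of -0.37 and 0.16, neither of which passed the test.

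In the wider pathways, a list of 30 inflammasome and pyroptosis genes had 12 tested rows, of which 0 passed at an adjusted p under 0.05 from edgeR or DESeq2. At an unadjusted p under 0.05 (edgeR), 1 row was higher, against 4.46% of all rows. That row was P2rx7, the ATP-gated channel that triggers the Nlrp3 inflammasome, at 43.8 CPM under NLD and 62.2 under SD. Its position differs from one build to the other, so that its name may stand for another gene, and the caspases were the 3 rows of this list at the same position. Of 50 genes of NOD, inhibitor of apoptosis and NF-kB signaling, 22 rows were tested and 0 passed at an adjusted p, with a median log2 fold change of -0.04. At an unadjusted p (edgeR), 1 row was lower, against 4.02% of all rows. It was labelled Otulin, a deubiquitinase of linear ubiquitin chains. The RIG-I pathway had 9 tested rows, with 0 past either threshold. Irf5, a transcription factor of interferon and cytokine genes at the same position, had 187 ± 43.7 CPM (s.d., n = 3) under NLD and 162 ± 25.5 (s.d., n = 3) under SD. Its log2 fold change was -0.21 (edgeR adjusted p = 0.816). Of 13 tested rows of the Src kinase list, 0 passed at an adjusted p. At an unadjusted p (edgeR), 1 was lower, against 4.02% of all rows, and was labelled Ptpn6, the phosphatase SHP-1. Neither Otulin nor Ptpn6 is among the genes placed at the same position, so that these names may also stand for other genes.

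Of 41 interferon-induced genes, 12 rows were tested and 0 passed at an adjusted p from edgeR. At an unadjusted p (edgeR), 1 was higher, against 4.46% of all rows, and 1 was lower, against 4.02%. DESeq2 called 1 of the 12, against 1.9% of all rows. It was Ifi47, an interferon-induced GTPase gene, whose row had 190.5 ± 82.4 CPM (s.d., n = 3) under NLD and 72.1 ± 4.12 (s.d., n = 3) under SD (adjusted p = 0.003 from DESeq2 and 0.321 from edgeR). Of 8 tested rows of an apoptosis list, DESeq2 called 1, again against 1.9% of all rows. That row was Cflar, an inhibitor of caspase-8, at 53.6 ± 11.9 CPM (s.d., n = 3) under NLD and 99.0 ± 13.0 (s.d., n = 3) under SD (adjusted p = 0.016 from DESeq2 and 0.321 from edgeR). The remaining row past an unadjusted p among the interferon-induced genes was Stat2, at 127 ± 9.25 CPM (s.d., n = 3) under NLD and 159 ± 5.06 (s.d., n = 3) under SD (edgeR adjusted p = 0.578). None of these 3 genes is among those placed at the same position. Of 27 acute phase genes, which hepatocytes switch on in inflammation, 19 rows were listed at 0 in the 6 libraries and 3 were tested, of which 0 passed at either threshold from edgeR. None of the 27 rows lay at the same position, so that their names may stand for other genes. A 0 in such a row does not show that the RNA was absent from the liver.

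The MAPK list had 160 rows, of which 56 were at 0 in the 6 libraries and 60 were tested. At an adjusted p under 0.05, 0 of the 60 were called by edgeR, and DESeq2 called 1 higher, Map3k11, and 1 lower, Hras, against 1.9% of all rows. At an unadjusted p under 0.05 from edgeR, 4 of the 60 were higher (Map3k11, Rps6ka5, Dusp1 and Sos1), against 4.46% of all rows, and Hras was lower, all named after their values were seen and none at the same position. The 4 higher rows had low levels. Map3k11 had 0 CPM under NLD and 3.21 ± 1.30 (s.d., n = 3) under SD. Rps6ka5, Dusp1 and Sos1 had means of 3.16, 5.11 and 6.18 CPM under NLD and 9.58, 10.7 and 11.2 under SD. The row labelled Hras, a small GTPase of growth factor signaling, had 2835 ± 166 CPM (s.d., n = 3) under NLD and 1852 ± 231 (s.d., n = 3) under SD (adjusted p = 0.309 from edgeR and 0.0015 from DESeq2). Log2 fold changes lay above 0 for 40 rows and below 0 for 20, with a median of 0.15 against 0.03 over all rows tested. Only 4 of the 60 tested rows lay at the same position, so that most of these names may stand for other genes. The share of all rows above 0 was not counted. Rows at the same position were Map3k7, Map3k8, Met, Tgfbr1 and Flnc. Met, the receptor of hepatocyte growth factor, had 1086, 1171 and 1081 CPM under NLD and 1296, 1199 and 1628 CPM under SD. The groups did not overlap, as in 17.0% of all rows tested. The log2 fold change of Met was 0.31 (standard error 0.15, edgeR adjusted p = 0.622). Tgfbr1, a receptor of transforming growth factor beta, had 351 ± 52.9 CPM (s.d., n = 3) under NLD and 417 ± 23.3 (s.d., n = 3) under SD. Its log2 fold change was 0.25 (edgeR adjusted p = 0.658). Flnc, which encodes filamin C, was left out by the filter on low counts, with 24 counts in NLD replicate 2, 124 in SD replicate 2 and 0 to 3 in the other libraries. None of these rows at the same position passed the test.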

How the data were processed

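The authors deposited raw counts per gene for 6 liver libraries, made with HISAT2 for alignment and StringTie for quantification. The methods name GRCm39 and the submitters' processing notes GRCm38 and mm10. Not given in the sources used here are read length, strand setting and counting script. The methods give a longer trial than the labels and another RNA kit.

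For the comparison of SD with NLD, edgeR 4.0.16 was run in R 4.3.3 (normalization by TMM, filterByExpr, robust glmQLFit, glmQLFTest, two-sided, Benjamini-Hochberg adjustment over 7261 rows). The fit was also run on simulated counts with less spread between libraries than was estimated here. That run does not show how the fit behaves at the spread of these libraries. The standard error is the size of the log2 fold change divided by the root of F. Intervals are for the log2 fold change between groups of 3 mice, with a variance that the fit draws partly from other rows. Counting error was taken as Poisson. Alternatives were DESeq2 1.42.0, RLE factors, other filters, no 10 most abundant rows, a block for the replicate number, leaving out each library, the ratio pseudocount and the longest transcript as length.

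A row was at the same position when gene spans overlapped and promoter sequences inside and on either side were found in GRCm39 within 10 bases of their GRCm38 place (for chromosome 18, when 11 neighbouring rows had a median start difference of at most 10 bases). This definition was chosen after seeing the data. The 10 genes and the lists were chosen with earlier results of these data known. Named beside them were up to 3 further tested rows per pathway list with the smallest p at the same position, or up to 2 where there was none, and Cyp7a1. Other list rows and markers were named after their values were seen. Within a group, no library was a repeat of another (chi-square per row 31.5 to 70.2). Libraries of different groups were not compared in this way. The result of 1 gene of the MAPK list is not reported here.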

Additional observations from a re-analysis of the deposited data

How the results depend on the processing

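Over 70 values of the 10 genes under other settings, 2 changed sign (Birc2, to 0.0043 with at least 10 counts in every library and to 0.0028 with the replicate block), and the largest shift was 0.16 on the log2 scale. With a library left out, 12 of 60 changed sign. The range was -0.65 to 0.26 for Casp4 (sign changed without NLD replicate 2), -0.34 to 0.36 for Casp12 (without NLD replicate 1 or SD replicate 2), -0.096 to 0.097 for Birc2 (without NLD replicate 2 or SD replicate 3), -0.38 to 0.092 for Birc3 (without SD replicate 1 or 3), -0.070 to 0.15 for Lyn (without NLD replicate 3 or SD replicate 1) and -0.13 to 0.20 for Map3k8 (without NLD replicate 3, SD replicate 1 or SD replicate 3). No value of a gene passed at an adjusted p (lowest 0.347, edgeR), and 0 to 1 passed at an unadjusted p with a library left out. Over all rows, edgeR called 14 higher and 7 lower. The counts were 27 and 17 with no filter, 9 higher with at least 10 counts in every library, 70 and 67 with DESeq2, 1 and 0 over rows at the same position alone, and 0 to 24 and 0 to 6 with a library left out. The causes were not tested. With the replicate number as a block 0 and 0 were called. Samples of the same number deviated together little (correlations 0.036, 0.069 and 0.076). No correlations of samples with different numbers were set beside these, so they do not decide whether the numbers pair the samples. Per kb of the longest transcript, levels in CPM were 4.15 for Casp4, 52.1 for Birc2, 37.8 for Birc3, 25.1 for Ripk2, 68.3 for Ddx58, 117 for Lyn, 85.2 for Map3k7 and 9.59 for Map3k8. With 3 mice per group, the 95% intervals still held a 2-fold decrease of Casp1 and Casp4 and a 2-fold increase of Casp12. The size of change that could be detected was not calculated.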
